A study of Mus musculus with 10 samples.

Results

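The phagocyte NADPH oxidase is a membrane enzyme that passes electrons from NADPH to oxygen and so makes superoxide. Its core is a pair of membrane proteins, the catalytic subunit encoded by Cybb and its partner encoded by Cyba, which steadies it. In a resting cell the organizer (Ncf1), the phosphoinositide-binding subunit (Ncf4) and other subunits wait in the cytosol, and a stimulus brings them, together with a Rac GTPase (Rac1 or Rac2), to the core. Loss of function of Cybb, Cyba, Ncf1 or Ncf4 causes chronic granulomatous disease in humans. The enzyme is best known from neutrophils and macrophages, and eosinophils also make superoxide with it.

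The transcripts of 6 oxidase genes, Cybb, Cyba, Ncf1, Ncf4, Rac1 and Rac2, were followed over 10 Affymetrix GeneChip Mouse Gene 1.0 ST arrays. They were chosen by symbol: each has 1 probe set that the platform annotation assigns to that gene alone, out of 19937 named genes. In the study, BM-derived eosinophils (BMEos), BM-derived basophils (BMBs) and mast cells were grown from BM cells of Slpi-/- mice, which lack secretory leukoprotease inhibitor, and of wild-type B6 mice, all of the strain C57BL6/N. The 10 groups, with 1 array each, were Slpi-/- and B6 BMEos given lipopolysaccharide (LPS, 1 µg/ml for 3 h), Slpi-/- and B6 BMEos left without it, Slpi-/- and B6 BMBs loaded with anti-TNP-IgE for 1 h and then given TNP-ovalbumin for 12 h (called BMBs with IgE), Slpi-/- and B6 BMBs left without them, and Slpi-/- and B6 mast cells, which were not stimulated. Mast cells and BMBs were grown in IL-3, BMBs were then isolated magnetically as c-kit- DX5+ cells, and BMEos were grown in stem cell factor and Flt3 ligand and afterwards in IL-5. How many mice or cultures went into an array is not given in the sources used here, so p-values measure only the spread between these arrays, which may be technical.

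Values are log2 signals, on which a difference of 1 is a change by a factor of 2. A signal was called above background where it exceeded the 95th percentile of 1027 olfactory receptor genes on the same array, a level of 5.56 to 5.78. Levels are compared only within a gene, since probe sets of different genes cannot be set against each other. The sums over marker lists do add signals of different genes, so they follow the brightest markers and do not measure a share of cells.

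The labels were checked first. Slpi itself read 5.93 to 6.55 on the 5 Slpi-/- arrays, against 11.33 and 11.42 on the B6 BMB arrays, 7.96 and 8.08 on the B6 BMEos arrays and 6.53 on the B6 mast cell array. All 5 measured eosinophil markers were above background on all 4 BMEos arrays, and all 6 basophil markers on all 4 BMB arrays. The mast cell arrays had the highest summed level of the 6 mast cell markers (13.99 and 14.15, against 7.55 to 11.61 elsewhere). Of these 6, 3 were above background on the B6 and 4 on the Slpi-/- mast cell array, and 3 on each BMB array. Of the basophil markers, 4 were above background on both mast cell arrays. Siglec5, Ear1 and Ear2 of the eosinophil list were not measured. The B6 BMB array without IgE stood apart in the neutrophil granule genes Mpo (8.84, against 5.56 to 6.43 on the other 9 arrays), Elane (7.14, against 5.16 to 5.73) and Prtn3 (7.25, against 5.23 to 5.85). The BMEos arrays with LPS differed in sex-linked genes, as given beside the LPS results.

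Promoter sequences are shown for the 3 members that were higher in both BMEos and BMBs than in mast cells, since a reader may want to see the DNA in front of genes that moved together. RefSeq promoters (GRCm38.p6) were found for these 3 of the 6 members, and Ncf4, Rac1 and Rac2 had no entry. Each line holds the 250 bases before the start of the gene, or a stretch of 30 bases across the start of Cybb, written 5′ to 3′ on the strand of the gene. Capitals mark matches to 3 of the motifs searched on both strands: GAGGAA (the core bound by PU.1, the product of Spi1), CCAAT and GATAA (the core bound by GATA factors).
Cybb, chrX:9469325-9469574, minus strand: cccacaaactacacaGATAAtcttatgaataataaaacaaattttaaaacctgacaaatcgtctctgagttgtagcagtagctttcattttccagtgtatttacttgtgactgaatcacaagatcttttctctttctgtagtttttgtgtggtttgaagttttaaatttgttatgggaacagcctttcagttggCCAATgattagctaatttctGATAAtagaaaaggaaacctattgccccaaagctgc
Cybb across its start, chrX:9469305-9469334, minus strand: ccaaagctgctgttttcatTTCCTCatcag
Cyba, chr8:122432941-122433190, minus strand: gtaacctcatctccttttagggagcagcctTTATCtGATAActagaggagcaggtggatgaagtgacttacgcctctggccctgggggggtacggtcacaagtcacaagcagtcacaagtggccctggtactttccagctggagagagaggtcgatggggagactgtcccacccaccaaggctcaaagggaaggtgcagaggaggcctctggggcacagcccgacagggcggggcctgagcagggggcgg
Ncf1, chr5:134229626-134229875, minus strand: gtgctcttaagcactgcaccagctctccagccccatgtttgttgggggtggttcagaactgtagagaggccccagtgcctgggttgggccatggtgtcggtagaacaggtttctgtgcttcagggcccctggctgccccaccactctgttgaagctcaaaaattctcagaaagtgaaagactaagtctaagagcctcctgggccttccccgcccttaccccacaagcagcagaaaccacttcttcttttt
The Cybb stretch holds, counted from the start of the gene, CCAAT at position -56, GATAA at positions -235 and -36, and the GAGGAA core on the opposite strand (printed as TTCCTC) at position 10. The Cyba stretch holds GATAA at position -214 and, for the opposite strand, TTATC at position -220, close beside it. The Ncf1 stretch holds none of these letters, nor TATAA. Such short motifs are common: of 32851 RefSeq promoters of 300 bases, 28.3% hold GAGGAA, 37.4% CCAAT, 25.4% GATAA and 24.9% TATAA on either strand, and a match is only a description.

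The first comparison asked how the oxidase genes differ between the 3 unstimulated cell types. The membrane core followed the order BMEos, BMBs, mast cells. Cybb, the catalytic subunit, read 11.27 and 11.12 on the Slpi-/- and B6 BMEos arrays, 7.22 and 7.47 on the BMB arrays and 5.29 and 4.92 on the mast cell arrays. The 3 cell types did not overlap, and both mast cell arrays lay below background, so that Cybb was not detectable there. In a limma fit over the 6 unstimulated arrays, Cybb was higher in BMEos than in BMBs by 3.85 (SE 0.15, adjusted p = 5.29e-06), a factor of 14.4. Against the background of the mast cell arrays it was at least 44.2-fold higher in BMEos (measured difference 6.09, SE 0.15, adjusted p = 4.31e-07) and at least 3.06-fold higher in BMBs (measured difference 2.24, SE 0.15, adjusted p = 4.94e-05). These are bulk cultures, in which more cells of one type and more RNA per cell cannot be told apart.

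**Figure D1:**
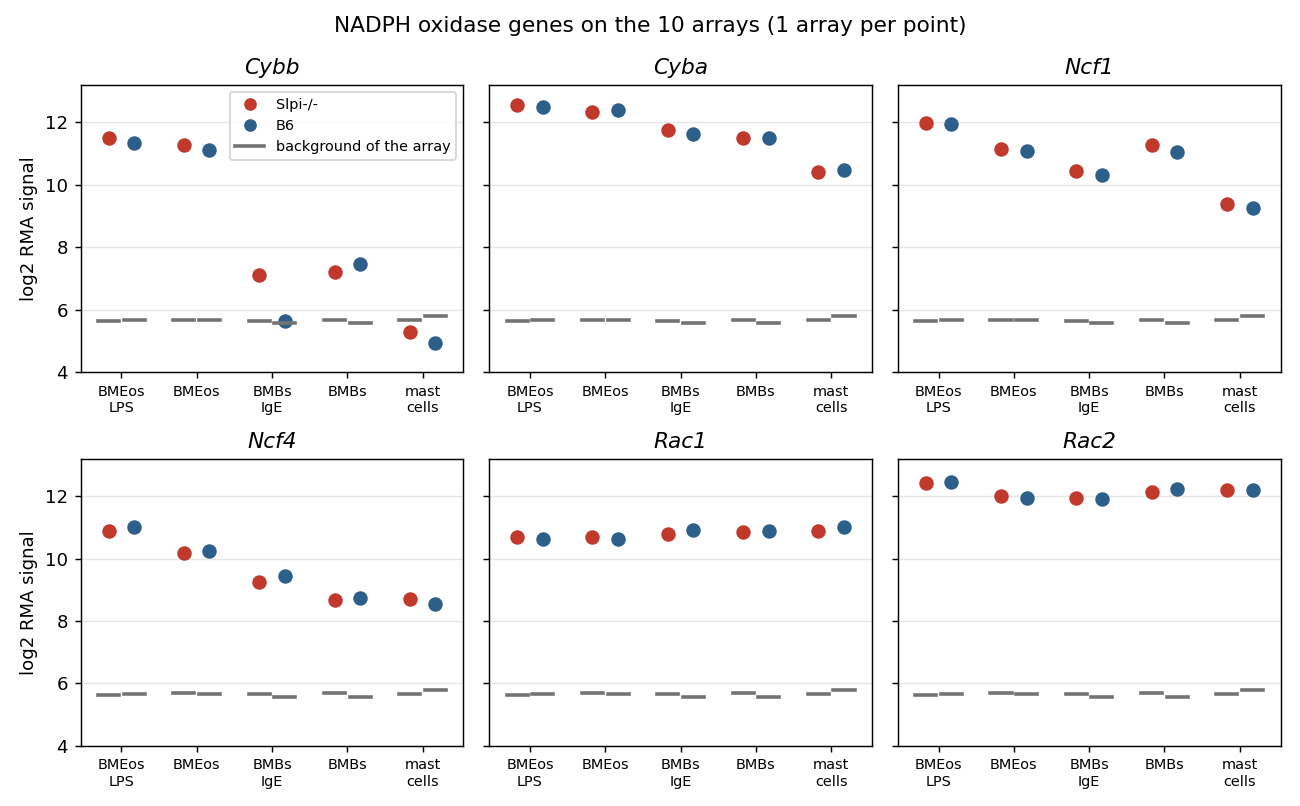
Log2 RMA signal (y axis) of each of the 6 genes on the 10 arrays, by cell type and stimulus (x axis), with Slpi-/- arrays in red left of B6 arrays in blue. Each point is 1 array and each grey bar is the background of that array. Cybb spans 4.92 to 11.50, while Rac1 spans 10.63 to 11.02.

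Cyba, the partner subunit, was well above background everywhere and showed a smaller step in the same order. It read 12.33 and 12.41 in BMEos, 11.50 and 11.51 in BMBs and 10.41 and 10.48 in mast cells, again with no overlap. Cyba was higher in BMEos than in mast cells by 1.92 (SE 0.09, adjusted p = 6.04e-06, a factor of 3.78), higher in BMBs than in mast cells by 1.06 (SE 0.09, adjusted p = 1.76e-04) and higher in BMEos than in BMBs by 0.86 (SE 0.09, adjusted p = 4.68e-04).

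The cytosolic subunits followed 2 other patterns. Ncf1, the organizer that docks on the core once phosphorylated, read 11.14 and 11.09 in BMEos, 11.28 and 11.03 in BMBs and 9.38 and 9.24 in mast cells. BMEos and BMBs overlapped and both lay above mast cells, by 1.80 (SE 0.10, adjusted p = 1.05e-05) and 1.84 (SE 0.10, adjusted p = 1.84e-05). The difference of BMEos minus BMBs was -0.04 (95% interval -0.28 to 0.19, adjusted p = 0.766), so that a difference of more than about 0.28 either way is outside the interval. Ncf4, which binds phosphatidylinositol 3-phosphate on phagosomes, read 10.19 and 10.24 in BMEos, 8.66 and 8.74 in BMBs and 8.69 and 8.54 in mast cells. Here BMBs and mast cells overlapped (difference 0.09, 95% interval -0.16 to 0.34, adjusted p = 0.561). BMEos lay above both, by 1.51 over BMBs (SE 0.11, adjusted p = 6.00e-05) and by 1.60 over mast cells (SE 0.11, adjusted p = 2.29e-05).

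The Rac genes were close to level across the cell types. Rac2, the GTPase of blood cells, read 12.02 and 11.93 in BMEos, 12.12 and 12.22 in BMBs and 12.20 and 12.19 in mast cells. Rac1, its widely expressed relative, read 10.69 and 10.63 in BMEos, 10.85 and 10.89 in BMBs and 10.87 and 11.02 in mast cells. None of the 6 Rac comparisons passed the threshold. The largest was Rac1 in BMEos minus mast cells at -0.28 (95% interval -0.53 to -0.04, adjusted p = 0.0534), which lay just outside the threshold and passed it after quantile normalization (-0.48, adjusted p = 0.00684).

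Of the 6 members, 4 were higher in BMEos than in mast cells, where 24.3% of the 12998 genes tested were higher and 26.8% lower, and 0 members were lower. For BMBs against mast cells the count was 3 higher and 0 lower, against 18.8% and 17.9% of all genes. For BMEos against BMBs it was again 3 higher and 0 lower, against 18.6% and 21.2%. The median difference over the 6 members was 1.70, 0.57 and 0.41 in these comparisons, beside -0.04, -0.01 and -0.03 over all genes tested.

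**Figure D2:**
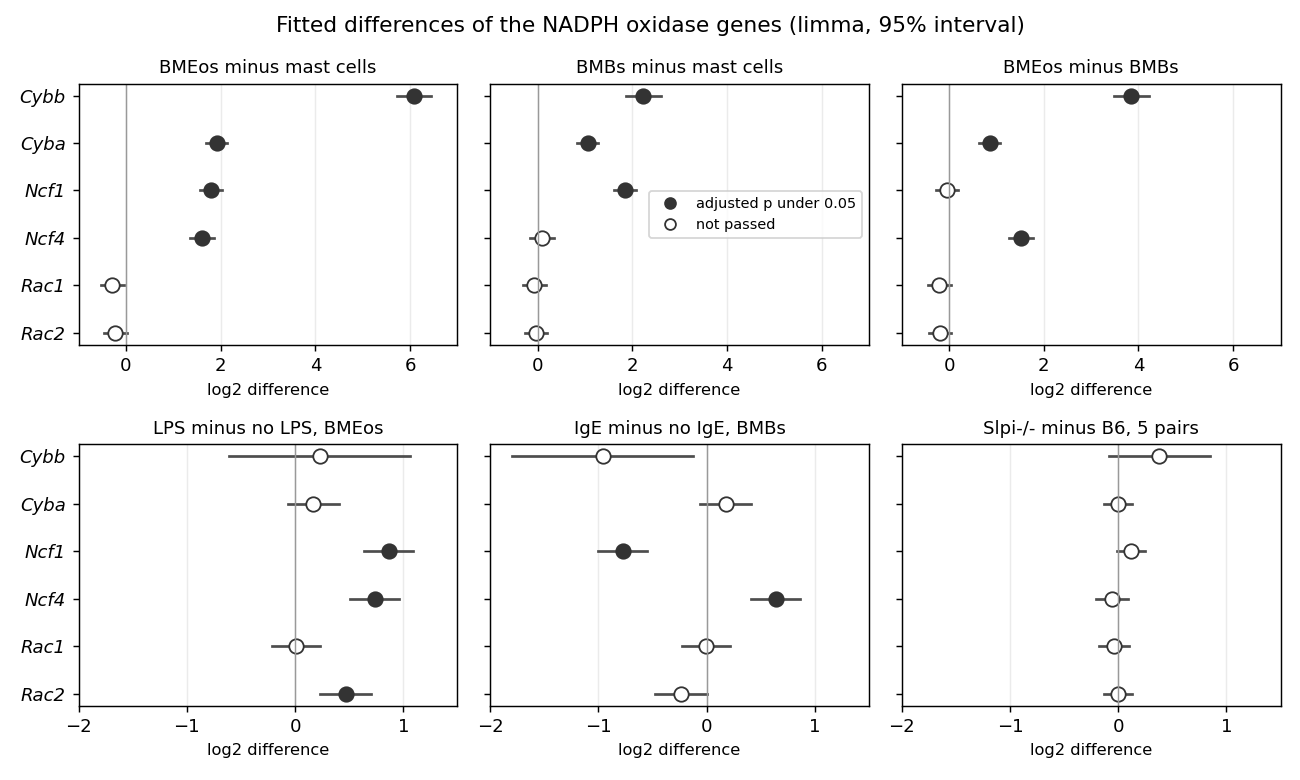
Fitted log2 difference (x axis) of each gene (y axis) in 6 comparisons, each titled with the difference it shows. The panels of the lower row have a narrower scale than those of the upper row. Points are limma estimates, lines are 95% intervals, and filled points have an adjusted p under 0.05. Cybb has the largest cell type differences (up to 6.09) and none of the 6 genotype points is filled.

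Markers of other phagocytes also differed between the cell types. The neutrophil markers as a sum were above mast cells in both granulocytes and higher in BMBs than in BMEos, while single markers went either way. The summed level of 14 neutrophil markers was 12.40 to 12.45 in BMEos, 13.38 to 13.42 in BMBs and 9.22 to 9.24 in mast cells, with 11 to 12, 8 to 11 and 1 to 3 of the markers above background. Ly6g, a neutrophil surface antigen, read 9.67 and 9.55 in BMEos, 12.68 and 12.38 in BMBs and 5.70 and 5.38 in mast cells. Cxcr2 was also higher in BMBs (11.41 and 11.42) than in BMEos (9.57 and 9.52), as was Ctsg (9.56 and 10.44, against 5.50 and 5.30). Other neutrophil markers were higher in BMEos. Ngp read 10.51 and 11.18 in BMEos and 5.02 and 6.77 in BMBs. Retnlg read 10.60 and 10.04 in BMEos and 6.23 and 5.10 in BMBs, and S100a9 read 7.60 and 7.45 in BMEos and 4.95 and 6.23 in BMBs. S100a8 was below background on both BMEos arrays, and Elane lay near it (5.73 and 5.50). The 12 measured monocyte and macrophage markers summed to 12.46 to 12.49 in BMEos, 11.52 to 11.92 in BMBs and 11.40 to 11.42 in mast cells. Each sum was carried mostly by 1 marker, and not the same one in each cell type. It was Adgre1, an antigen of macrophages and eosinophils, in BMEos (12.09 on both arrays) and in BMBs (10.82 and 11.33). In mast cells it was Cx3cr1 (11.13 and 11.15). Among the 12 markers Csf1r, the M-CSF receptor, read 9.62 and 9.43 in BMEos, while C1qa was below background on all 6 arrays. The part of such cells in the results was not tested. Without the B6 BMB array that carried Mpo, Elane and Prtn3, 1 unstimulated BMB array was left. Cybb was then at least 2.81-fold higher in BMBs than in mast cells (measured difference 1.98), Cyba was higher by 1.09 and Ncf1 by 1.92.

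The second comparison asked what LPS did in BMEos. LPS, a bacterial lipid sensed by TLR4, went with higher signals of the cytosolic part of the oxidase and of Rac2. Ncf1 read 11.99 and 11.96 on the Slpi-/- and B6 arrays with LPS, against 11.14 and 11.09 on those without. Ncf4 read 10.89 and 11.01 with LPS, against 10.19 and 10.24 without. Both arrays with LPS lay above both without it for each gene, and the increase was 0.86 for Ncf1 (SE 0.09, adjusted p = 0.00141, a factor of 1.82) and 0.74 for Ncf4 (SE 0.09, adjusted p = 0.00257, a factor of 1.66). Rac2 read 12.42 and 12.47 with LPS, against 12.02 and 11.93 without, an increase of 0.47 (SE 0.10, adjusted p = 0.0156). The call of Rac2 was lost when any 1 of the 4 BMEos arrays was left out, where the LPS term rests on the pair of 1 genotype (0.40 to 0.53).

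The membrane core, already high without LPS, did not pass. Cybb read 11.50 and 11.34 with LPS, against 11.27 and 11.12 without. The difference was 0.23 in each genotype, and the fit gave 0.23 (95% interval -0.61 to 1.06, adjusted p = 0.653). The fit has 1 residual spread per gene, and Cybb varied more among the BMB arrays (5.65 to 7.47) than among the BMEos arrays. Cyba read 12.56 and 12.51 with LPS, against 12.33 and 12.41 without (difference 0.17, 95% interval -0.07 to 0.40, adjusted p = 0.245). Rac1 read 10.70 and 10.63 with LPS, against 10.69 and 10.63 without (difference 0.01, 95% interval -0.21 to 0.23, adjusted p = 0.964).

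In all, 3 of the 6 members were higher with LPS and 0 lower, where 12.7% of 13571 genes were higher and 16.2% lower. The median over the members was 0.35, beside 0.02 over all genes. Sex-linked genes separated the same arrays. Xist, transcribed from an inactive X chromosome, read 9.66 and 9.72 with LPS, against 4.90 and 4.15 without. The Y-linked Eif2s3y read 3.54 and 3.22 with LPS, below background, against 8.45 and 8.20 without. LPS and the sex-linked difference cannot be told apart, for any gene. Of the members only Cybb lies on the X chromosome, where 47 of 370 genes tested were higher with LPS and 55 lower (median 0.00). The monocyte and macrophage markers summed to 12.95 to 12.99 with LPS, against 12.46 to 12.49 without. This sum was carried mostly by Adgre1 (12.53 and 12.55 with LPS, against 12.09 on both arrays without). Csf1r read 10.27 and 10.44 with LPS, against 9.62 and 9.43 without. The neutrophil markers summed to 12.13 to 12.19 with LPS, against 12.40 to 12.45 without. The part of these cells in the LPS results was not tested.

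The third comparison asked what IgE and antigen did in BMBs. The 2 cytosolic subunits moved in opposite directions. Ncf1 fell to 10.44 and 10.33 on the Slpi-/- and B6 arrays with IgE, against 11.28 and 11.03 without, a difference of -0.77 (SE 0.09, adjusted p = 0.00322). Ncf4 rose to 9.24 and 9.44 with IgE, against 8.66 and 8.74 without, a difference of 0.64 (SE 0.09, adjusted p = 0.00583). For both genes the arrays with and without IgE did not overlap, and each genotype moved the same way. In BMEos with LPS both genes had been higher, so Ncf4 was higher with either stimulus while Ncf1 was higher with LPS and lower with IgE; the effects of these stimuli, given for different times in different cells, were not set against each other in a test.

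Cybb was low on 1 array. With IgE it read 7.11 in Slpi-/- BMBs and 5.65 in B6 BMBs, the last just above the background of its array (5.56), against 7.22 and 7.47 without IgE. The difference of IgE minus no IgE was thus -0.10 in Slpi-/- BMBs and -1.82 in B6 BMBs, with 1 array for each value and no test of the gap between the genotypes. The fit, which takes 1 IgE term for both, gave -0.96 (95% interval -1.80 to -0.12) and did not pass (adjusted p = 0.101). Leaving out either Slpi-/- array left the B6 pair alone to give the IgE term (-1.82), with no spread between BMB pairs. Leaving out either B6 array left the Slpi-/- pair alone (-0.10). Cyba (difference 0.18, adjusted p = 0.261), Rac1 (-0.01, adjusted p = 0.963) and Rac2 (-0.24, 95% interval -0.47 to -0.00091, adjusted p = 0.142) did not pass. So 1 member was higher with IgE and 1 lower, where 12.2% of all genes were higher and 10.6% lower, and the median was -0.12 over the members and -0.02 over all genes.

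Markers of other cells on the BMB arrays went both ways, and their part in the low Cybb of the B6 array with IgE was not tested. Over whole lists, the neutrophil markers summed to 12.66 on the Slpi-/- and 12.51 on the B6 array with IgE, against 13.38 and 13.42 without. The platelet markers summed to 12.72 on the Slpi-/- and 11.40 on the B6 array with IgE, against 12.33 and 12.50 without. Among the 4 BMB arrays, the eosinophil, dendritic cell, lymphocyte and basophil sums were also lowest on the B6 array with IgE. The mast cell sum (11.61) was highest there. The 12 monocyte and macrophage markers summed to 12.09 on the Slpi-/- and 12.24 on the B6 array with IgE, against 11.52 and 11.92 without. Among the 4 BMB arrays this sum was highest on the one where Cybb was lowest, but it was carried mostly by Adgre1. This macrophage and eosinophil antigen read 11.64 and 11.88 with IgE, against 10.82 and 11.33 without. Other members of the list went both ways. C1qb (6.65 and 6.14 with IgE, against 6.65 and 7.05 without) and Mrc1 (5.94 and 5.63, against 6.34 and 6.97) were lowest on the B6 array with IgE. Cd68 (9.25 and 9.16, against 8.94 and 9.22) and Cx3cr1 (6.28 and 6.48, against 6.18 and 6.48) were not. The following 3 genes, also lowest on the B6 array with IgE, were chosen for that after their values were seen. Csf1r read 6.53 on the Slpi-/- and 5.73 on the B6 array with IgE, against 6.78 and 6.92 without. Ccr3, the eotaxin receptor of eosinophils and basophils, read 6.36 and 4.63 with IgE, against 7.55 and 6.78 without. Mmp8, a neutrophil collagenase, read 5.80 and 4.65 with IgE, against 6.11 and 6.59 without.

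The last comparison asked whether loss of Slpi went with other levels of the oxidase genes, in 5 pairs of arrays that share cell type and stimulus. None of the 6 members passed in BMEos, in BMBs, in the difference between these cell types, or over all 5 pairs by limma's test, and at an unadjusted p under 0.05 the count was also 0. Few genes of any kind passed. The shares of the 13571 genes called higher and lower were 0.0% and 0.00737% in BMEos, 0.0% and 0.00737% in BMBs, 0.00737% and 0.0% for the difference, and 0.0% in both directions over all pairs, while 785, 917, 826 and 722 genes had an unadjusted p under 0.05.

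In BMEos the genotype pairs were near each other. Cybb was higher in Slpi-/- than in B6 BMEos by 0.16 in both pairs, and the other 5 members differed by at most 0.12 in either pair. In BMBs, Cybb in Slpi-/- minus B6 was 1.46 with IgE and -0.25 without, with a fitted 0.61 (95% interval -0.23 to 1.45, adjusted p = 0.823). Over all 5 pairs Cybb was 0.38 (95% interval -0.09 to 0.85, adjusted p = 0.914), positive in 4 of 5 pairs. Of these, the mast cell pair (5.29 and 4.92) was below background on both arrays, and the pair of BMBs with IgE rests on a B6 array near it (5.65). Ncf1 was positive in 5 of 5 pairs, by 0.03 to 0.24, with a fitted 0.12 (95% interval -0.01 to 0.25, adjusted p = 0.914). Over the same 5 pairs Cyba gave 0.0011 (95% interval -0.13 to 0.13), Ncf4 -0.06 (-0.21 to 0.09), Rac1 -0.04 (-0.18 to 0.10) and Rac2 -0.0028 (-0.13 to 0.12). For the 5 genes other than Cybb these intervals leave out differences beyond 0.25 either way.

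**Figure D3:**
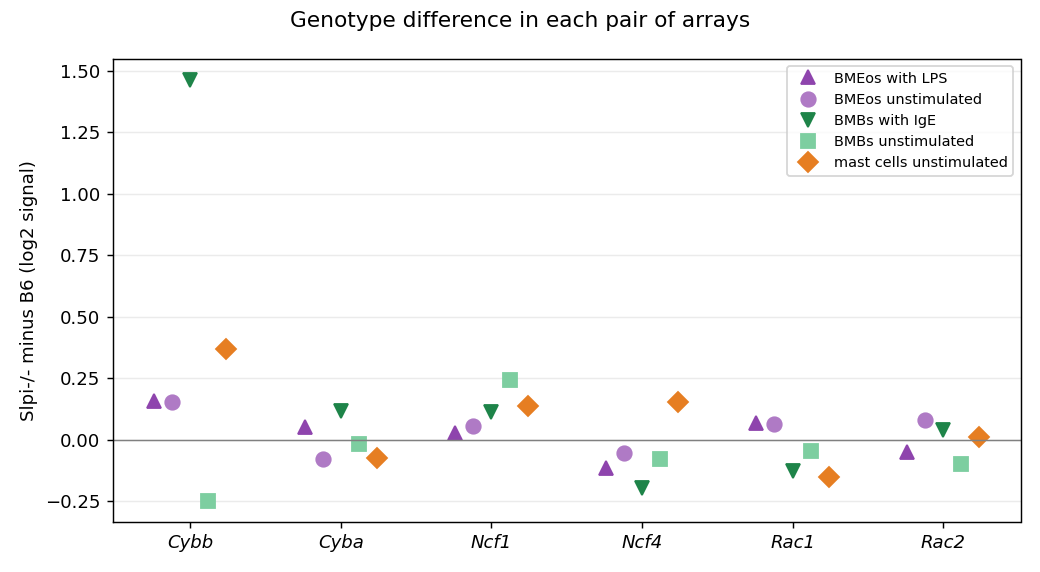
Log2 signal of the Slpi-/- array minus that of the B6 array (y axis) for each gene (x axis), with 1 point for each of the 5 pairs of arrays. The pair of BMBs with IgE stands alone for Cybb at 1.46, and the other points lie between -0.25 and 0.37.

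Other genes of the oxidase family and its surroundings were read from lists of related genes. Of the 11 other oxidase genes measured, Nox3, Nox4, Noxa1, Duox1, Duox2 and Duoxa2 were below background on all 10 arrays. Nox1, a catalytic subunit known from colon, was above background on 1 array only, the Slpi-/- BMEos with LPS (6.14), against 5.57 on the B6 array with LPS and 4.19 and 4.74 on those without. Since the B6 array with LPS was also below background, a least fold change would rest on the Slpi-/- array alone and is not given. The measured difference, mostly between signals below background, was 1.39 (SE 0.25, adjusted p = 0.00912). Nox1 lies on the X chromosome. Cybc1, a chaperone needed to make the Cybb and Cyba core, read 9.41 and 9.52 in BMEos, 9.11 and 9.21 in BMBs and 8.78 and 8.87 in mast cells, the order of the core itself. It was higher in BMEos than in mast cells by 0.64 (SE 0.09, adjusted p = 0.00114) and higher in BMBs than in mast cells by 0.34 (SE 0.09, adjusted p = 0.0289).

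Among 17 measured activators and inhibitors of Rac, 9 were higher and 3 lower in BMEos than in mast cells, beside 24.3% and 26.8% of all genes, and 7 higher and 4 lower in BMBs than in mast cells, beside 18.8% and 17.9%. The counts of all these lists are descriptions, and no test set a list against the other genes. Prex1, an exchange factor for Rac known from neutrophils, was higher by 2.94 in BMEos (SE 0.19, adjusted p = 2.22e-05) and by 2.68 in BMBs (SE 0.19). Arhgap15, a GTPase-activating protein that turns Rac off, was higher too, by 2.36 and 2.06 (SE 0.12 each). Tiam1, another exchange factor, read 7.84 and 7.93 in BMEos, 10.96 and 11.10 in BMBs and 11.35 and 11.35 in mast cells, and was lower in BMEos than in mast cells (-3.47, SE 0.10, adjusted p = 6.18e-07). The median over the 17 genes was 0.35 for BMEos minus mast cells and 0.19 for BMBs minus mast cells. With LPS 3 of the 17 were higher and 5 lower, beside 12.7% and 16.2% of all genes, and with IgE 2 and 4, beside 12.2% and 10.6%.

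Of 17 measured kinases and other activators, 10 were higher and 4 lower in BMEos than in mast cells (24.3% and 26.8% of all genes), led by Pik3r5, a subunit of the phosphoinositide 3-kinase that G-protein receptors use (2.84, SE 0.16, adjusted p = 1.18e-05). For BMBs against mast cells 7 were higher and 3 lower (18.8% and 17.9% of all genes), with Prkcb, a protein kinase C, at -1.55 (SE 0.11, adjusted p = 5.82e-05). For BMEos against BMBs 8 were higher and 1 lower (18.6% and 21.2% of all genes). Hvcn1, the proton channel that balances the charge moved by the oxidase, read 10.13 and 10.14 in BMEos, 8.52 and 8.64 in BMBs and 8.28 and 8.40 in mast cells. It was higher in BMEos than in BMBs by 1.56 (SE 0.10, adjusted p = 3.55e-05) and lower in BMBs with IgE than without (-0.77, SE 0.10, adjusted p = 0.00388). With LPS 3 of the 17 were higher and 3 lower (12.7% and 16.2% of all genes), and with IgE 2 and 3 (12.2% and 10.6%).

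**Figure D4:**
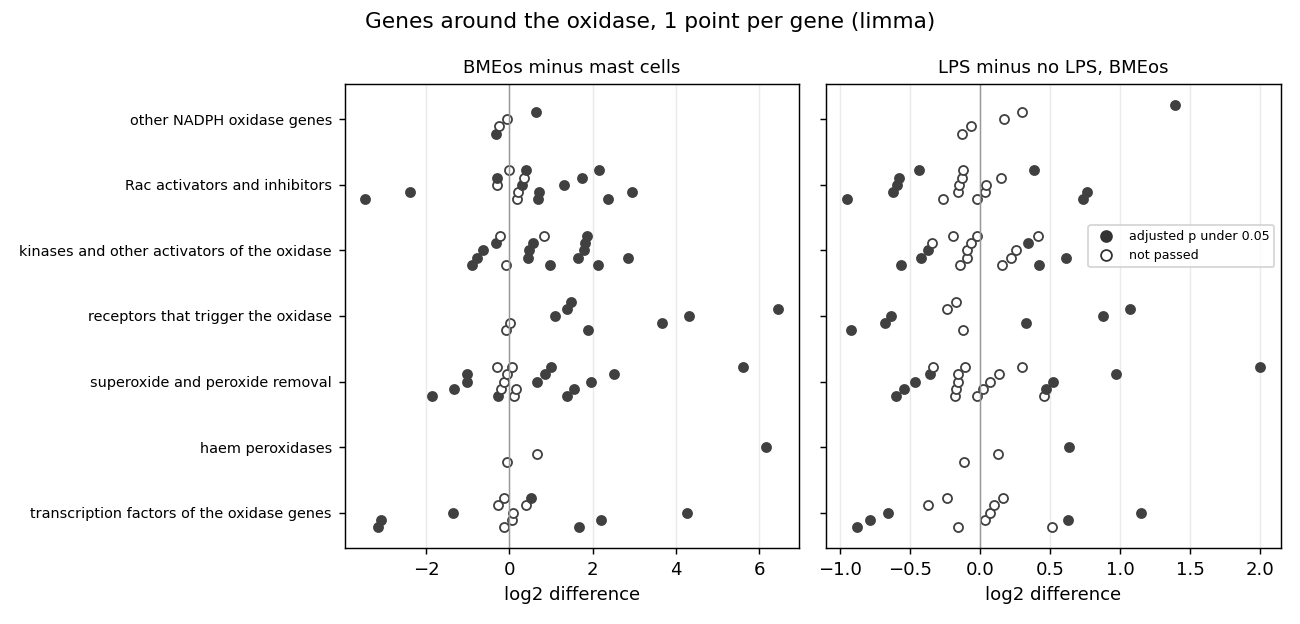
Fitted log2 difference (x axis) of the measured genes of 7 lists (y axis), 1 point per gene, for BMEos minus mast cells on the left and LPS minus no LPS in BMEos on the right, on separate scales. Filled points have an adjusted p under 0.05 in the limma fit, and values of genes below background in 1 group are as measured. Of the receptors, 7 of 9 tested are higher in BMEos than in mast cells and 0 lower, while with LPS 3 are higher and 3 lower.

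Of 9 tested receptors that trigger the oxidase, 7 were higher and 0 lower in BMEos than in mast cells, beside 24.3% and 26.8% of all genes, and 5 and 0 in BMBs, beside 18.8% and 17.9%. The integrin Itgam read 11.59 and 11.65 in BMEos and 9.63 and 9.61 in BMBs, while both mast cell arrays (5.17 and 5.15) were below background, at least 59.3-fold and at least 14.8-fold lower (adjusted p = 1.09e-07 and 5.49e-07). Its partner Itgb2 was higher by 4.31 in BMEos (SE 0.10) and by 4.59 in BMBs (SE 0.10) than in mast cells. The complement receptor C5ar1 was below background in BMEos (5.39 and 5.31) and read 8.50 and 8.55 in BMBs, at least 7.27-fold higher in BMBs (adjusted p = 5.08e-06). Tlr4, the LPS receptor, was higher in BMEos than in BMBs by 1.68 (SE 0.11, adjusted p = 4.22e-05). With LPS, where 12.7% of all genes were higher and 16.2% lower, 3 of the 9 receptors were higher and 3 lower, led by the fungal glucan receptor Clec7a (1.07, SE 0.14, adjusted p = 0.00265) and the Fc receptor Fcgr3 (-0.92, SE 0.11, adjusted p = 0.00166). With IgE, where 12.2% of all genes were higher and 10.6% lower, 3 were higher and 4 lower, among them C5ar1 (1.01, SE 0.14, adjusted p = 0.0047) and Itgb2 (-1.09, SE 0.09, adjusted p = 0.00139).

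A list for superoxide and peroxide removal held the enzymes that do this and related genes such as Slc7a11, Gclc, Gclm, Hmox1 and Nqo1. It went both ways between cell types. Of 20 tested, 8 were higher and 5 lower in BMEos than in mast cells (24.3% and 26.8% of all genes), and 5 and 5 in BMBs (18.8% and 17.9%). Slc7a11, the cystine carrier that feeds glutathione synthesis, read 10.73 and 10.94 in BMEos and 8.18 and 8.06 in BMBs and was below background in mast cells (5.34 and 5.11), at least 34.4-fold and at least 5.25-fold lower. With LPS 4 of the 20 were higher and 4 lower (12.7% and 16.2% of all genes), and mitochondrial superoxide dismutase Sod2 rose the most, with 10.29 and 10.52 on the arrays with LPS, against 8.42 and 8.39 without (2.0, SE 0.12, adjusted p = 1.77e-04). With IgE 8 of the 20 were higher and 0 lower, beside 12.2% and 10.6% of all genes. Hmox1, haem oxygenase, read 9.89 and 10.61 in BMBs with IgE, against 7.95 and 8.04 without (2.26, SE 0.16, adjusted p = 8.72e-04), and the peroxiredoxin Prdx1 was higher by 1.03 (SE 0.12, adjusted p = 0.00282). Nqo1, a quinone reductase, read 6.67 and 6.54 with IgE and was below background without it, at least 1.97-fold lower (adjusted p = 0.00139).

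Of the haem peroxidases, which use the peroxide that comes from superoxide, the eosinophil enzyme Epx was above background only on the 4 BMEos arrays. It read 11.54 and 11.57 with LPS and 10.67 and 11.17 without (0.64, SE 0.13, adjusted p = 0.0155). Against the unstimulated mast cell arrays it was at least 36.6-fold higher in BMEos without LPS (adjusted p = 2.30e-07).

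Among 13 tested transcription factors that are known to act on oxidase genes in myeloid cells, 4 were higher and 3 lower in BMEos than in mast cells, and 3 and 4 in BMBs. These counts against mast cells are near the shares of all genes (24.3% and 26.8% for BMEos, 18.8% and 17.9% for BMBs) and say nothing particular about these factors. For BMEos against BMBs 5 of the 13 were higher and 5 lower, beside 18.6% and 21.2% of all genes. Cebpe, needed for the last steps of granulocyte development, read 10.34 and 10.36 in BMEos, 5.79 and 5.99 in BMBs and 6.06 and 6.12 in mast cells (BMEos minus mast cells 4.26, SE 0.10, adjusted p = 3.52e-07). Cebpa was the reverse among the granulocytes, with 6.83 and 6.59 in BMEos, 10.21 and 10.07 in BMBs and 6.13 and 6.49 in mast cells (BMBs minus mast cells 3.83, SE 0.15, adjusted p = 5.34e-06). Spi1, which encodes PU.1, read 11.38 and 11.26 in BMEos, 10.38 and 10.53 in BMBs and 9.64 and 9.67 in mast cells, the order of Cybb and Cyba, and was higher in BMBs than in mast cells by 0.80 (SE 0.11, adjusted p = 0.00129). It was lower in BMBs with IgE than without (-0.51, SE 0.10, adjusted p = 0.0173), 1 of 4 lower with IgE, where 0 were higher, beside 10.6% and 12.2% of all genes. With LPS, beside 12.7% and 16.2% of all genes, 2 were higher, among them Irf1 (1.15, SE 0.10, adjusted p = 6.06e-04), and 3 lower. None of the genes tested in these 7 lists passed for genotype in BMEos, in BMBs or over all pairs.

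Over the 10 arrays Cybb varied together with Cyba (Pearson r = 0.91), Ncf4 (0.89) and Ncf1 (0.85), against Rac1 (-0.93) and little with Rac2 (0.28); these values describe 3 cell types more than 10 independent samples. The genes most like each member over the same arrays, out of 13571, were as follows. Cybb was most like F5 (coagulation factor V, r = 0.998), Cotl1 (0.995) and Tgfbi (0.994), and Cyba was most like the cystine carrier gene Slc7a11 (0.994), Acta1 (0.993) and Cyrib (0.991). Ncf1 was most like Slfn2 (0.985), Unkl (0.984) and Tmem131l (0.982), and Ncf4 was most like Trib1 (0.989), Slc25a33 (0.989) and Larp4b (0.987). Rac1 was most like Adgra3 (0.965), Vps18 (0.954) and Meis3 (0.95), and Rac2 was most like the DNA-editing enzyme gene Apobec3 (0.970), Klhl29 (0.954) and Nkx2-5 (0.953).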

How the data were processed

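The labels put 1 array in each of 10 groups, 2 genotypes by 5 cell type and stimulus settings. Per the submitters' notes, the authors computed robust multi-array averages (RMA) in Bioconductor (affy), and the deposited values are log2 signals, used here as deposited. RMA shares its quantile step over all 10 arrays and gives no detection call. Low signals may be compressed and fold changes of dim genes understated, which was not measured here. Of 34760 probe sets, 21640 carry 1 gene symbol in the platform annotation, 1321 carry several and 11799 none. Symbols were updated by gene ID through a RefSeq table of assembly GRCm38.p6, which matched 21553. A gene with several probe sets was read by that with the highest mean. The number of arrays limits the precision.

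Tests were two-sided, by limma 3.58.1 (lmFit and eBayes) in R 4.3.3, over named genes above background on at least 1 array of the fit, with Benjamini-Hochberg adjustment over all of them and a threshold of 0.05. Cell types were fitted on the 6 arrays without a stimulus, with terms for cell type and genotype (2 residual degrees of freedom, and 4.75 from the prior). LPS, IgE and the genotype difference in BMEos and BMBs came from all 10 arrays with 1 mean per cell type in each genotype plus 1 term per stimulus (2 residual degrees of freedom), which takes a stimulus effect as the same in both genotypes. Genotype over all settings had 5 setting blocks (4 residual degrees of freedom). Some of the fits were also run on data simulated from the same model. Such data cannot show how a fit behaves where a stimulus effect differs between genotypes. Where all arrays of a group were below background, "at least" gives the mean of the other group over the mean background of the dim arrays. Alternatives were median centring, quantile normalization, averaging the probe sets of each gene, testing all named genes, the 99th percentile as background, a trend of the variance, the methods' t-test, other sets of arrays, and leaving out each array. The genes named were every member on every array, up to 4 genes with the largest differences per list and comparison among those past the threshold or with a role in the complex, and the 3 genes most like each member. The members and lists were chosen with earlier results of these data known. Figures were drawn with Python 3.11.15 and matplotlib 3.10.9.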

Additional observations from a re-analysis of the deposited data

Results flagged for a closer look

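Some results had opposite signs in 2 settings of the same contrast. With 1 array per group, the difference between the settings was not tested in any of them, and values near 0 can differ in sign by the spread between arrays alone.

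The largest was Cybb, where Slpi-/- minus B6 was 1.46 in BMBs with IgE and -0.25 in BMBs without, a difference of 1.71. It rests on the B6 array with IgE, where Cybb read 5.65, near background.

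The others were small. The genotype difference of Cyba was 0.05 in BMEos with LPS and -0.08 without (0.13 apart), and 0.12 in BMBs with IgE and -0.01 without (also 0.13). That of Rac2 was -0.05 in BMEos with LPS and 0.08 without (-0.13), and 0.04 in BMBs with IgE and -0.10 without (0.14). Of the cell type differences, Ncf1 in BMEos minus BMBs was -0.14 in Slpi-/- and 0.05 in B6 cells (-0.19), Ncf4 in BMBs minus mast cells was -0.03 in Slpi-/- and 0.21 in B6 cells (-0.23), and Rac2 in BMBs minus mast cells was -0.08 in Slpi-/- and 0.03 in B6 cells (-0.11). IgE minus no IgE for Rac1 was -0.05 in Slpi-/- and 0.03 in B6 BMBs (-0.0801).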

How the results depend on the processing

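With 1 array per condition, the fits lean on a spread shared across genes. Of 882 recomputed member values, 812 kept their direction and their side of the threshold, 41 reversed, 10 passed that had not and 19 no longer passed. The calls of Cybb, Cyba, Ncf1 and Ncf4 between cell types and of Ncf1 and Ncf4 with LPS and IgE held in each alternative other than the methods' t-test, which has too few pairs and called 0 members and at most 1 of all genes in these comparisons. That gave 0 higher members in place of 4, 3, 3, 3 and 1, and 0 lower with IgE in place of 1. The number of members lower in BMEos than in mast cells, 0, became 2 after quantile normalization (Rac1 and Rac2), 2 with a variance trend, 1 with the 99th percentile as background and 1 in a fit of all 10 arrays. The number lower in BMEos than in BMBs, 0, became 1 (Rac2) after quantile normalization. The number lower with IgE, 1, became 2 with a variance trend (Rac2 added). In fits without 1 array of a stimulus pair, the term of that stimulus rests on the pair of the other genotype alone. Calls there measure no spread between pairs. No member passed for genotype in any alternative.

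Leaving out an array gave 643 to 1793 genes higher and 868 to 2310 lower with LPS (1724 and 2202 with all arrays), 559 to 1659 and 550 to 1435 with IgE (1654 and 1436), and 1522 to 2400 higher in BMEos than in BMBs (2414). A variance trend called 4 higher and 2 lower genes for genotype in BMEos, and 5 and 4 in BMBs, none of them members. Leaving out an array gave 0 to 5 higher and 1 to 10 lower in BMBs.

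All reversals were of differences that had not passed. After centring, Rac1 with LPS was -0.0695, Cyba for genotype 0.0007 in BMEos and -0.0008 over all pairs. After quantile normalization, Ncf4 in BMBs minus mast cells was -0.0076, Cyba for genotype in BMEos 0.0106 and Rac2 for genotype over all pairs 0.0118. With 1 array left out, BMBs minus mast cells ranged over -0.0211 to 0.20 for Ncf4, -0.15 to 0.0067 for Rac1 and -0.0996 to 0.0445 for Rac2, BMEos minus BMBs over -0.12 to 0.0298 for Ncf1, and IgE over -0.0478 to 0.0323 for Rac1. Genotype in BMEos ranged over -0.0779 to 0.051 for Cyba and -0.0488 to 0.0823 for Rac2, and in BMBs over -0.25 to 1.46 for Cybb, -0.0147 to 0.12 for Cyba and -0.0976 to 0.0397 for Rac2. Genotype in BMEos minus that in BMBs ranged over -1.31 to 0.40 for Cybb, -0.13 to 0.0013 for Cyba, -0.0055 to 0.11 for Ncf4 and -0.023 to 0.11 for Rac2, and over all pairs genotype ranged over -0.0283 to 0.0209 for Cyba and -0.024 to 0.021 for Rac2. The cause was not tested. The labels carry no replicate numbers, so the pairs are those of arrays that share a setting or a genotype.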
